A study of Sus scrofa with 6 samples.

Results

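The SR protein kinases and SR splicing factors were described in porcine 2-cell parthenogenetic embryos with and without SIN3A knockdown. The set was listed as 6 kinases (SRPK1, SRPK2, CLK1, CLK2, CLK3 and CLK4) and 4 SR proteins (SRSF1, SRSF2, SRSF3 and SRSF7). Of these 10 genes, 8 were found by name among the 17678 genes of the deposited table. SRSF1 and SRSF2 have no name there and were found by their Ensembl identifiers, ENSSSCG00000017626 and ENSSSCG00000036592. SRPK1 was chosen by its KD and NC abundances in this same table, as it nearly doubled in knockdown embryos, so its difference between the groups is described and not tested. The other 9 genes were listed as its relatives and substrates.

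NC embryos came from metaphase II oocytes injected with a nonspecific siRNA, and KD embryos from oocytes injected with siRNAs against SIN3A, the scaffold of a histone deacetylase complex. Both groups came from ovaries of crossbred Landrace, Yorkshire and Duroc pigs and were activated parthenogenetically after injection, so neither had a paternal genome. Poly(A) RNA was sequenced at 32 h after activation in 3 libraries per group, each made from 20 pooled embryos. The authors describe 3 independent replicates, but the labels do not say whether the 3 libraries of a group came from separate batches of oocytes. The p-values measure only the spread between these libraries.

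SR proteins are splicing factors that carry a domain rich in arginine and serine beside their RNA-binding domain. Their serines are phosphorylated by the SRPK family, which sits largely in the cytoplasm and allows SR proteins to be imported into the nucleus, and by the CLK family, which acts in the nucleus and releases SR proteins from speckles. The phosphorylated and dephosphorylated forms together govern where and when SR proteins act on pre-mRNA. In the 2-cell pig embryo most messenger RNA was made by the oocyte, and transcription from the embryonic genome is still low.

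The values are the authors' normalized abundances, which are read estimates per gene made comparable between libraries. Depth, estimated from the spacing of low values, ranged over 7820000 to 12890000 reads for NC libraries and over 10170000 to 15850000 for KD libraries. SIN3A, the targeted gene, was at 32404 to 37361 in NC and at 1079 to 4173 in KD libraries. Oocyte and early embryo genes were abundant, and 10 of 14 markers were found. Their summed value was 85447 to 94837 in NC and 82658 to 102921 in KD libraries, with KPNA7, BMP15 and H1FOO as the highest. These had NC means of 38666, 20209 and 21467 and made up most of the NC sum. ZP3, OOEP, ZAR1 and NPM2 were far lower, with NC means of 419 to 464. Of 14 markers of cumulus and granulosa cells, 11 were found and none was at 0 in all libraries. Their summed value was 94.3 to 108 in NC and 76.5 to 119 in KD libraries, with FST, INHBA and STAR as the highest. FST alone, at 53.0 to 64.8 in NC and 38.03 to 77.08 in KD libraries, made up most of the NC sum. Some low markers, named after their values were seen, moved apart from the sum. In KD replicate 3, CYP19A1, CYP11A1 and FOXL2 reached 10.7, 14.2 and 13.1, with NC means of 1.83, 4.42 and 1.68. CYP19A1 was also at 9.27 in KD replicate 1 and at 3.26 in KD replicate 2, with 0 to 3.55 in NC libraries. PTX3 was at 0.762 to 2.21 in NC and listed at 0 in all KD libraries. The part of these cells in the results was not tested. The values are relative, so a change in the total messenger RNA of an embryo was not assessed. In pooled embryos, fewer embryos with a transcript and less of it per embryo cannot be told apart.

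SRPK1 (ENSSSCG00000001554) lies at chr7:31645753-31701305 of Sscrofa11.1 on the minus strand, and its longest RefSeq mRNA has 15 exons and 4845 bases. It phosphorylates runs of serines in SR proteins. The NC libraries, in the order of their replicate numbers, held SRPK1 at normalized abundances of 3302, 2778 and 3231, and the KD libraries at 5831, 6072 and 5787. Mean abundance was 3104 ± 284 (SD, n = 3) for NC against 5897 ± 153 (SD, n = 3) for KD, a ratio of 1.90. All KD libraries lay above all NC libraries, as in 4.85% of the genes tested, and single KD libraries were at 186% to 196% of the NC mean. On the log2(value + 1) scale the difference was 0.93. Omission of any single library kept it within 0.85 to 0.98, and the lower value was that without NC replicate 2. Among the 11986 genes with a mean of at least 10, SRPK1 had the 95th largest positive difference, and its mean over the 6 libraries was above that of 96.2% of them. In a limma fit over these genes, 19 genes (0.159%) passed an adjusted p of 0.05, 7 of them higher (0.0584%) and 12 lower (0.1%) in KD. SRPK1 was in this fit and is counted among the 19 and the 7. That is no test of SRPK1, because it was chosen by these values.

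**Figure D1:**
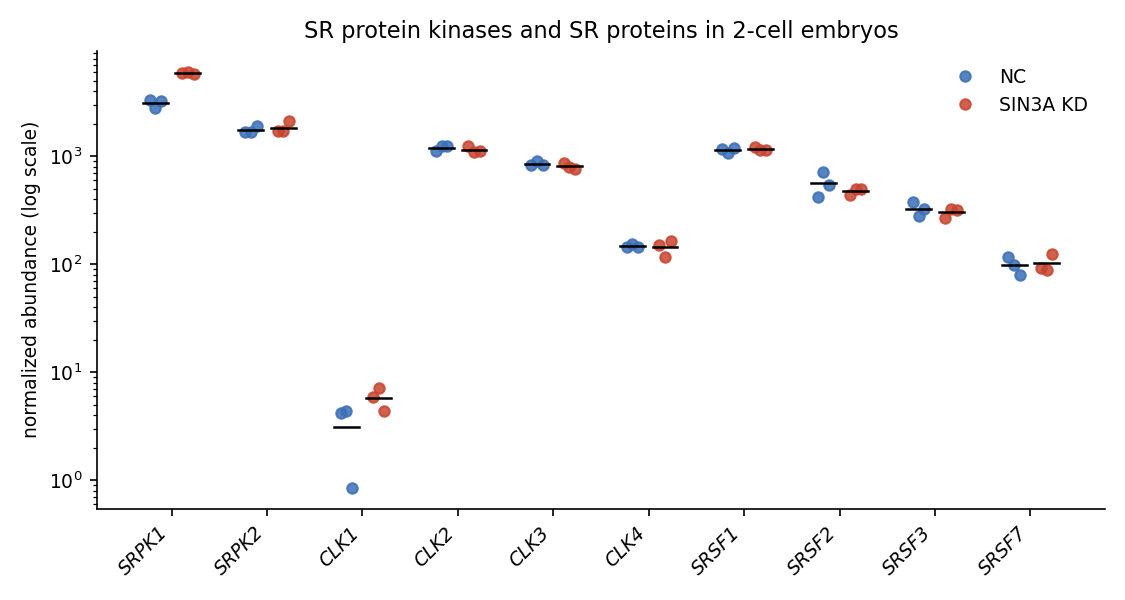
Normalized abundance (log scale) of the 10 genes in each library, with NC in blue, SIN3A KD in red and a black line at the mean of 3 libraries. SRPK1 is at 2778 to 3302 in NC and 5787 to 6072 in KD, while the points of both groups overlap in the other 9 genes.

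SRPK2 (ENSSSCG00000026110), the closest relative of SRPK1 among the members, lies at chr9:105009550-105264689 on the minus strand. Its abundance was 1683, 1658 and 1921 across the NC libraries and 1694, 1698 and 2098 across the KD libraries. The groups overlapped, and replicate 3 was the highest in both. The log2 difference was 0.06 (95% confidence interval -0.17 to 0.28, adjusted p = 0.997 by limma with Benjamini-Hochberg adjustment). The ratio of SRPK1 to SRPK2 within a library, each per kilobase of its longest mRNA, was 1.89 to 2.21 in NC and 3.11 to 4.04 in KD embryos.

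The ends of both mRNAs are shown because the libraries were made from RNA captured by its poly(A) tail. The lines give 30 bases that end with the polyadenylation hexamer nearest to the end, and for SRPK1 also 30 bases around TTTTAT, a form of the cytoplasmic polyadenylation element of oocyte mRNAs. Capitals mark the hexamer or TTTTAT. The first sequence lies at chr7:31645772-31645801, the second at chr7:31645812-31645841 and the third at chr9:105009656-105009685, all on the minus strand of Sscrofa11.1 in RefSeq.
SRPK1, polyadenylation hexamer: ttgttttctttgtaaatgcagtacAATAAA
SRPK1, TTTTAT: ccctggatacatTTTTATtctttctactga
SRPK2, polyadenylation hexamer: gaggtgcttgcagttgtcttaaaaATTAAA
TTTTAT was present in the last 150 bases of the longest mRNA of SRPK1, CLK1, CLK2, SRSF3 and SRSF7 and in 19.8% of 10219 genes, on the mRNA strand alone. AATAAA or ATTAAA was present in the last 50 bases of all 10 members and in 73.4% of these genes. A match describes the letters of the annotated mRNA end, and use of that end in the embryos was not measured. Tail length was not measured either. In RNA captured by its tail, a change in the amount of an mRNA and a change in its tail cannot be told apart.

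The CLK kinases differed widely in level. CLK2, CLK3 and CLK4 were tested and not called, where 0.159% of all genes tested were called. CLK2 (ENSSSCG00000006519) at chr4:94558220-94570084 had abundances of 1112, 1242 and 1249 across the NC libraries and 1233, 1083 and 1129 across the KD libraries. Its log2 difference was -0.06 (95% confidence interval -0.28 to 0.15). CLK3 (ENSSSCG00000001904) at chr7:58895407-58909616 had abundances of 823, 896 and 827 across the NC libraries and 864, 800 and 754 across the KD libraries, with a log2 difference of -0.08 (95% confidence interval -0.30 to 0.14). In both genes the groups overlapped, with the highest value in NC and the lowest in KD. CLK4 (ENSSSCG00000014028) at chr2:79729460-79752945 had abundances of 144, 153 and 145 across the NC libraries and 149, 117 and 165 across the KD libraries, with a log2 difference of -0.05 (95% confidence interval -0.42 to 0.33). The KD libraries of CLK4 spread on both sides of the narrow NC range.

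CLK1 (ENSSSCG00000016095) at chr15:104553512-104562348 was close to the limit of detection. Its values were 4.18, 4.39 and 0.851 across the NC libraries and 5.84, 7.21 and 4.38 across the KD libraries, about 1 to 10 reads per library. The groups overlapped by a narrow margin. CLK1 had a mean below 10 and was not among the genes tested. Without that filter its log2 difference was 0.85 with a 95% confidence interval of -0.51 to 2.20, so the direction of its difference was not resolved at this depth. CLK1 and CLK4 are similar genes, and whether reads were shared between them was not measured.

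For each of the 4 SR proteins a stretch is shown, the 30 bases of coding sequence with the most adjacent arginine and serine codons. The stretches were chosen by their codons alone, and phosphorylation of their serines was not measured. Capitals mark serine codons and lower case letters all other codons. The SRSF1 stretch is codons 204 to 213 at chr12:34280406-34280435 on the minus strand, the SRSF2 stretch codons 127 to 136 at chr12:4801381-4801410 on the plus strand, and the SRSF7 stretch codons 192 to 201 at chr3:101607491-101607520 on the plus strand. The SRSF3 stretch, codons 151 to 160, crosses an exon junction from chr7:32295641-32295657 to chr7:32295775-32295787 on the plus strand.
SRSF1: agaTCTcgaTCTcgaAGCcgtAGTcgtAGC
SRSF2: cgcAGCcgaTCCcggAGTcggAGCcggTCC
SRSF3: ttcTCTaggTCTcgtAGCcgaTCCaggTCA
SRSF7: TCCcggTCCaggTCGagaTCAagaTCCagg
Each stretch holds 5 serine codons, alternating with arginine codons except at the first codon of the SRSF3 stretch. The longest alternating run in the whole coding sequence was 17 codons in SRSF2, 16 in SRSF1, 11 in SRSF7 and 9 in SRSF3. Adjacent arginine and serine codons numbered 23.5 per 100 codons in SRSF2, 23.1 in SRSF7, 15.2 in SRSF3 and 12.5 in SRSF1, against a median of 0.794 over 10200 genes.

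The kinases split by family in the same measure. CLK2 and CLK3 had 4.4 and 4.69 such pairs per 100 codons, CLK1 and CLK4 had 2.27 and 2.07, and SRPK1 and SRPK2 had 0.602 and 0.654. The SRPKs were thus below the median of all genes compared, while all CLKs were above the 90th percentile of 1.61.

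**Figure D2:**
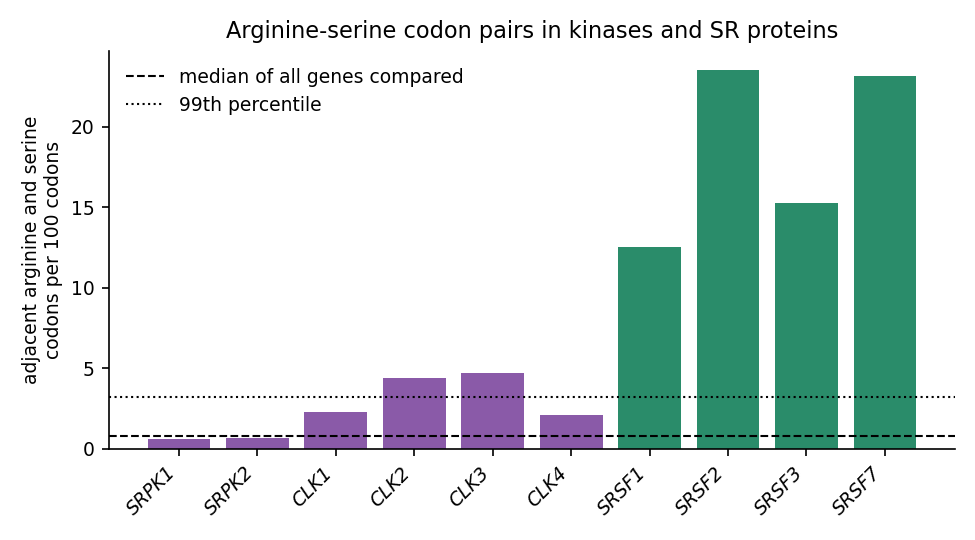
Adjacent arginine and serine codons per 100 codons in the longest RefSeq coding sequence of each gene, with kinases in purple and SR proteins in green. The 4 SR proteins stand at 12.5 to 23.5, while SRPK1 and SRPK2 lie below the dashed median of 0.794 and the dotted line marks the 99th percentile of 3.19.

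The 4 SR proteins were not called either, beside that share of 0.159% of all genes tested. SRSF1, a splicing activator that also binds exonic enhancers, had abundances of 1165, 1061 and 1200 across the NC libraries and 1211, 1144 and 1145 across the KD libraries, with a log2 difference of 0.03 (95% confidence interval -0.17 to 0.24). Its groups overlapped within a narrow range. SRSF2, which binds exonic enhancers as well, had abundances of 422, 717 and 544 across the NC libraries and 442, 497 and 495 across the KD libraries, with a log2 difference of -0.20 (95% confidence interval -0.53 to 0.13). The NC libraries of SRSF2 spread most among the tested members, with NC replicate 2 above and NC replicate 1 below all KD libraries, and the difference ranged from -0.39 without NC replicate 1 to -0.0048 without NC replicate 2. SRSF3, the smallest SR protein, had abundances of 373, 282 and 324 across the NC libraries and 270, 327 and 317 across the KD libraries, with a log2 difference of -0.10 (95% confidence interval -0.40 to 0.21). SRSF7, an SR protein with a zinc knuckle that also takes part in mRNA export, had the lowest level of the 4, with 117, 98.3 and 80.1 across the NC libraries and 93.2, 89.3 and 124 across the KD libraries. Its log2 difference was 0.05 (95% confidence interval -0.40 to 0.50). In SRSF3 and SRSF7 the groups overlapped, and the highest SRSF3 value was in NC while the highest SRSF7 value was in KD.

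Of the 8 tested genes besides SRPK1, 0 passed an adjusted p of 0.05 by limma, against 0.159% of all genes tested, and 0 had an unadjusted p below 0.05, against 4.61% of all genes. Without NC replicate 1 that last count was 1 of 8. Their adjusted p was 0.997 in each case. Their log2 differences ran from -0.20 to 0.06, with a median of -0.06 beside 0.0026 over all genes tested, and 3 were above and 5 below 0. The 95% confidence intervals together reached from -0.53 to 0.50, that is from 0.692 to 1.42 times the NC level. All 8 had overlapping groups, while 9.79% of all genes tested had groups that did not overlap.

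**Figure D3:**
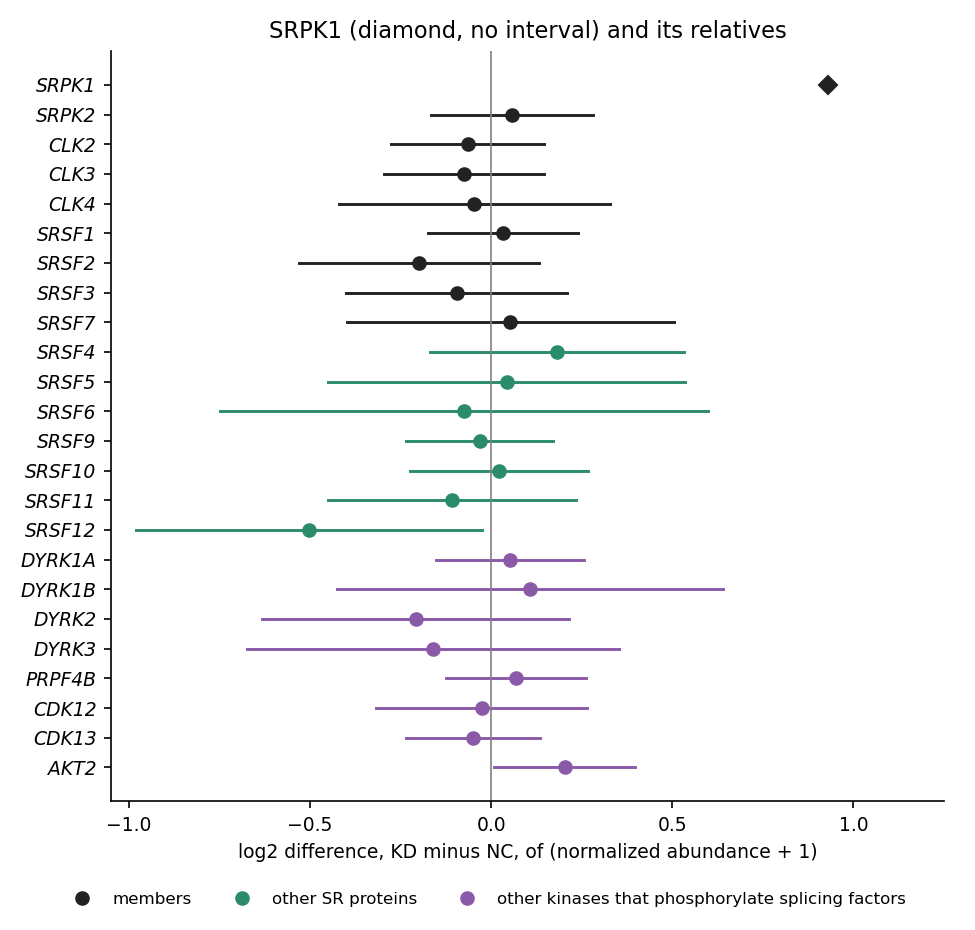
Log2 difference, KD minus NC, of the 9 members with a mean of at least 10 (black), of other SR proteins (green) and of other kinases (purple), with 95% confidence intervals from limma as lines. SRPK1 (diamond) is at 0.93 and is drawn without an interval because it was chosen for this difference, and the intervals of the other 8 members all include 0.

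Levels of different genes were compared per kilobase of the longest RefSeq mRNA. In NC embryos SRPK1 had the highest level, 641 ± 58.6 (SD, n = 3), followed by CLK2 with 547 ± 35.3, SRSF1 with 412 ± 26.2 and SRPK2 with 321 ± 26.6. SRSF2 was at 205 ± 54.2, CLK3 at 133 ± 6.46, SRSF3 at 93.7 ± 13.1, CLK4 at 38.7 ± 1.29, SRSF7 at 18.4 ± 3.44 and CLK1 at 1.67 ± 1.05. The 3 NC values of neighbouring genes in this order did not overlap for any pair, and the gap was smallest between SRPK1, with a lowest value of 573, and CLK2, with a highest value of 569. SRPK1 was above 90.8% of 10217 genes in this measure and SRSF7 above 28.2%. Divided by coding length in place of mRNA length, SRPK1 was second, at 1243, after SRSF1 at 1528. The order thus rests in part on the length used, and the lengths of the transcripts present in the embryos were not measured.

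In KD embryos the order of the 10 genes by mean was the same as in NC, with SRPK1 at 1217 ± 31.7 (SD, n = 3) per kilobase and CLK2 at 523 ± 35.0. The 5 other kinases summed to 984 to 1089 in NC and 964 to 1062 in KD libraries, and the 4 SR proteins to 703 to 744 and 693 to 708, so that both sums overlapped between the groups. SRPK1 made up 35.3% to 40.9% of the summed level of the 6 kinases in NC and 52.9% to 56.5% in KD libraries. These shares, like the ratio of SRPK1 to SRPK2, follow from the difference that chose SRPK1.

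**Figure D4:**
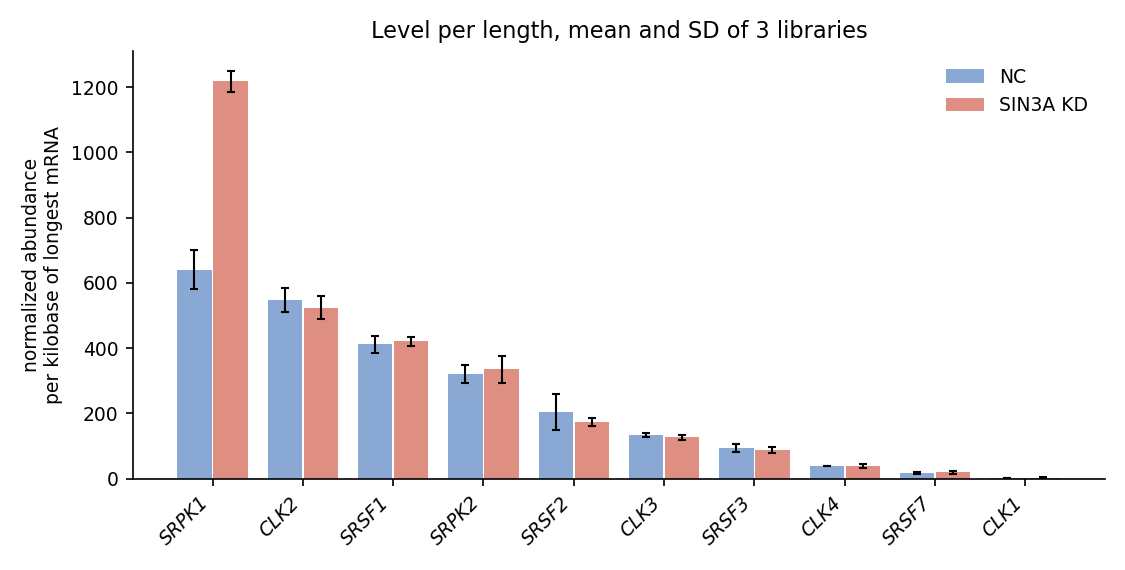
Mean normalized abundance per kilobase of the longest RefSeq mRNA in NC (blue) and SIN3A KD (red) embryos, ordered by the NC mean, with error bars of 1 SD of 3 libraries. The bars of SRPK1 stand at 641 in NC and 1217 in KD, and those of CLK2, the next gene, at 547 and 523.

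The other genes of the pathway were taken from 6 lists of SR proteins, SR-related proteins, kinases, phosphatases, import and chaperone partners, and further binders of SRPK1. Of 59 genes tested, 0 passed an adjusted p of 0.05 by limma and 2 (3.39%) had an unadjusted p below 0.05, against 0.159% and 4.61% of all genes tested. Their median log2 difference was -0.03, with a range of -0.50 to 0.52. Groups did not overlap in 6 of the 59 genes (10.2%), close to the share of 9.79% in all genes. The highest difference was that of SNRNP70, a protein of the U1 particle, with values of 49.7 to 53.6 in NC and 59.8 to 103 in KD libraries and a log2 difference of 0.52 (adjusted p = 0.997 by limma). SNRNP70 and SRSF12 were named after their values were seen.

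Among the 7 further SR proteins found, 3 had a log2 difference above and 4 below 0. The most abundant, SRSF9, SRSF4 and SRSF10, had differences of -0.03, 0.18 and 0.02, and SRSF11 had one of -0.11. SRSF12, with values of 86.6 to 92.2 in NC and 48.7 to 72.3 in KD libraries, had the lowest difference, -0.50 (unadjusted p = 0.0405, adjusted p = 0.997 by limma). All its KD values were below all NC values, which held for 4.94% of all genes tested.

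All 23 SR-related proteins were found, with 10 differences above and 13 below 0 and a median of -0.02. SRRM2, a large scaffold of nuclear speckles and the most abundant of them, had a difference of 0.12 (adjusted p = 0.997 by limma). Its values were 10045 to 10467 in NC and 11056 to 11421 in KD libraries. Groups did not overlap in 3 of the 23 genes, against 9.79% of all genes tested. SRRM2 and SNRNP70 were higher in KD, and RSRC2 was lower, at 411 to 427 in NC and 361 to 369 in KD libraries. RNPS1 of the exon junction complex had a difference of 0.07 and the speckle protein SON one of 0.12. SCAF1 had a difference of 0.20 and RSRC2 one of -0.19.

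Of 12 other kinases that phosphorylate splicing factors, 9 were found and 8 tested, with 4 differences on each side of 0. AKT2 had a difference of 0.20 (unadjusted p = 0.0419, adjusted p = 0.997 by limma), DYRK1A one of 0.05, PRPF4B one of 0.07 and DYRK2 one of -0.21. SRPK3, the muscle form of the SRPKs, was listed at 0 in all NC libraries and at 5.84, 2.16 and 2.19 in KD replicates 1 to 3, about 6 to 2 reads, and was not tested. It was named after its values were seen.

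Of the 8 phosphatase genes, which encode catalytic and targeting subunits able to remove these phosphates, 2 had a difference above and 6 below 0. PPP1CB had a difference of -0.09, PPP2CA one of -0.03, PPP2CB one of -0.06 and PPP1R8, which targets PP1 to the spliceosome, one of -0.17. Of the 7 import and chaperone partners, 3 were above and 4 below 0. TNPO1 had a difference of -0.06, HSPA8 one of -0.09, and HSP90AA1 and its cochaperone gene AHSA1 had 0.06 and 0.13. Of the 6 further binders and substrates found, LBR, an inner nuclear membrane protein with an RS stretch, had a difference of 0.07, NXF1 one of 0.10, SAFB one of 0.05 and NPM1 one of -0.05.

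**Figure D5:**
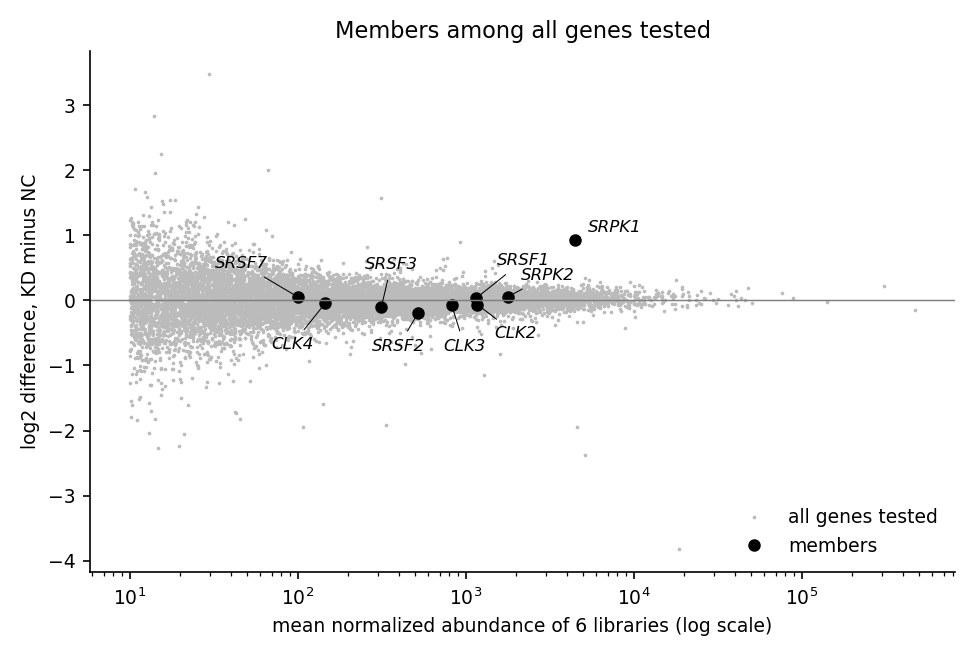
Log2 difference, KD minus NC, against the mean normalized abundance of the 6 libraries (log scale) for the 11986 genes with a mean of at least 10 (grey) and the 9 members among them (black). The point of SRPK1, chosen for its difference, is a description. SRPK1 stands at 0.93 with a mean of 4500.1, and the other 8 members lie between -0.20 and 0.06.

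The genes whose values across the 6 libraries were most like those of SRPK1 were SLC45A3, AP1B1, PRPF6, PLEKHA8 and MYH11, with Pearson correlations of 0.988, 0.985, 0.984, 0.979 and 0.976 on the log2 scale among 6791 named genes with a mean of at least 100. As the 6 points fall into 2 groups that differ in SRPK1, the correlation is mainly a measure of the group difference. Their ratios of KD to NC means were 1.18, 1.08, 1.27, 1.17 and 1.17, and their adjusted p by limma was 0.997 in each case. Among the members the correlation with SRPK1 ran from -0.56 for CLK3 to 0.39 for SRSF1.

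The 15 tested genes with a RefSeq position within 500 kb of SRPK1 on chromosome 7 were compared after its values were seen, and 0 of them passed an adjusted p of 0.05 by limma, nor an unadjusted p of 0.05. The nearest on either side, CLPS and MAPK14, had log2 differences of -0.04 and 0.02. The other 13 ran from -0.94 for PNPLA1, with a mean of 12.9, to 0.51 for SCUBE3, with a mean of 38.9.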

How the data were processed

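RNA of 6 libraries was sequenced after oligo(dT) capture. The submitters' processing notes name Salmon 0.14.1, DESeq2 and Sscrofa11.1, and the authors deposited a single table of abundances (unit signal) by Ensembl gene. The median ratio of each library to the geometric mean over genes was 1.01 in all 6, as after scaling by size factors. Between 43.1% and 66.1% of the values under 20 steps lay within 0.05 of a whole multiple of a step, so whole reads were not recovered, no count test was run, and depth is an estimate.

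Genes with a mean of at least 10 were tested on log2(value + 1) with limma 3.58.1 in R 4.3.3 (lmFit, eBayes with trend, Benjamini-Hochberg over all genes), which understates changes of low genes. The fit was tested on simulated data. Python 3.11.15, pandas 2.3.3, numpy 2.4.6, pysam 0.24.0 and matplotlib 3.10.9 were used. Names missing from the table were taken by Ensembl identifier (823 of 3575), and positions, lengths and sequences came from RefSeq on Sscrofa11.1, matched by symbol. All 10 members matched.

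The members and lists were chosen with earlier results of these data known. SRSF8, CDK11A, CDK11B, AKT1, PRM1, NLRP5, KHDC3L, DPPA3, DAZL, FSHR, HSD3B1 and HAS2 were not found by name or identifier. SRSF1 and SRSF2 were among those named by identifier. Named genes are the members, in each list the 3 most abundant, the 2 with the largest difference at a mean of at least 100 and any gene called, and the 5 most like SRPK1. Alternatives tried were a pseudocount of 0.1 or 10, all genes above 0, a minimum mean of 100, TMM (own implementation, trimming 30% of M and 5% of A) and quantile rescaling, other variance models, a replicate block, other lengths, and leaving out each library.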

Additional observations from a re-analysis of the deposited data

How the results depend on the processing

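SRPK1 stayed at a log2 difference of 0.91 to 0.98 in every alternative except without NC replicate 2, where it was 0.85, the low end of the range of 0.85 to 0.98 over libraries left out. None of the other 8 tested members and none of the 59 related genes passed an adjusted p of 0.05 in any alternative by limma, and the lowest adjusted p of these members was 0.875. At an unadjusted p below 0.05 the count of these members was 1 of 8 without NC replicate 1 and 0 in the other alternatives. Without the variance trend 0 genes passed among all genes, with 622 at an unadjusted p below 0.05. Leaving out 1 library gave 11 to 19 calls, with 11 without KD replicate 1 or KD replicate 2 and 12 without NC replicate 2 or NC replicate 3. By coding length SRPK1 was in place 2 of the members, and it was in place 1 with the mean mRNA length, after TMM rescaling and without any 1 NC library.

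In a fit with a replicate block, 26 genes passed. SRPK1 aside, the tested members had no call there, as in the main fit. After subtraction of the group means, the correlations of same-numbered libraries were 0.109, 0.111 and 0.0872. Those of differently numbered libraries ran from -0.0828 to -0.0215, so each library correlated best with its own number. The labels do not say whether the numbers pair the samples, and the main fit was made without pairing.

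Small differences changed sign when 1 library was left out. The log2 difference then ranged from -0.045 to 0.12 for SRPK2, -0.15 to 0.092 for CLK4, -0.020 to 0.069 for SRSF1, -0.20 to 0.0057 for SRSF3, -0.092 to 0.18 for SRSF7, -0.041 to 0.37 for SRSF4, -0.069 to 0.0051 for SRSF9, -0.035 to 0.070 for SRSF10, -0.21 to 0.015 for SRSF11, -0.042 to 0.11 for DYRK1A, -0.32 to 0.00079 for DYRK2, -0.071 to 0.0087 for PPP2CA, -0.17 to 0.024 for PPP2CB, -0.12 to 0.030 for TNPO1, -0.087 to 0.20 for HSP90AA1, -0.17 to 0.0011 for HSPA8, -0.094 to 0.23 for LBR, -0.032 to 0.091 for SAFB and -0.087 to 0.0073 for NPM1. The cause was not tested. Depth limits CLK1 and SRPK3, which rest on at most about 10 reads a library.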
